A study of Mus musculus with 4 samples.

Results

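Acetylated regions that carried several GATA4 peaks were examined in the heart ventricles of newborn mice. They were chosen by position alone: every H3K27ac peak that shared 1 bp or more with each of 3 or more GATA4 peaks was taken. Of 75011 H3K27ac peaks, 350 met this rule (0.467%), and they are called multi-GATA4 regions here. A further 830 H3K27ac peaks held exactly 2 GATA4 peaks, and 5324 held exactly 1, the single-GATA4 regions, which of like width served as the background. The remaining 68507 held none. The counts of GATA4 and the widths that go with them were fixed by this choice, so they are described and not tested.

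The study mapped TCF7L2, GATA4 and H3K27ac by chromatin immunoprecipitation and sequencing (ChIP-seq) in ventricles of wild-type C57BL/6 mice at postnatal day 6. Each precipitation pooled the ventricles of 10 hearts, and the labels give 2 biological replicates per antibody, for which 1 peak list each was deposited. All 3 lists come from the same kind of animal, for which no treatment is named, and the Input sample, the control without antibody, was not analysed here. Whole ventricles contain cardiomyocytes, fibroblasts, endothelial and other cells, so GATA4 peaks that lie in 1 region may have been occupied in different cells, and these cases cannot be told apart.

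GATA4 is a zinc-finger transcription factor that binds DNA sequences with a GATA core and is needed for heart formation and for many genes of the cardiomyocyte. Acetylation of histone H3 at lysine 27 (H3K27ac) marks active promoters and enhancers. Enhancers that lie close together often form broad acetylated domains to which several factors bind, and such domains are known near genes of cell identity. TCF7L2 belongs to the TCF/LEF family, which binds DNA at targets of Wnt signalling and works with beta-catenin. None of the lists gives a height or score, so a peak is described by its place and width only.

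Most multi-GATA4 regions were at the lower limit of the rule. Exactly 3 GATA4 peaks were found in 204 of them, 58.3%, 4 in 72 and 5 in 35. The remaining 39 held 6 or more, up to 19 in 1 region, and the mean was 3.93 ± 1.67 GATA4 peaks (SD over 350 regions). Together they held 1374 GATA4 peaks, 16.4% of the GATA4 peaks in acetylated chromatin, on 6.29% of the acetylated length (15.6 of 248.6 Mb). Only 2 of these 1374 peaks crossed the border of their H3K27ac peak.

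The regions were broad. Their widths ran from 1.70 to 241.3 kb with a median of 35.0 kb (quartiles 20.4 and 58.0 kb), against 14.6 kb for H3K27ac peaks with 2 GATA4 peaks and 5.59 kb for single-GATA4 regions. Width and GATA4 number went up together within the set: the median was 28.5 kb with 3 GATA4 peaks, 34.2 kb with 4, 49.2 kb with 5 and 74.1 kb with 6 or more. Pooled density was lower in these broad regions. Per 10 kb of acetylated length there were 0.879 GATA4 peaks in multi-GATA4 regions, 1.02 where 2 were present and 1.15 in single-GATA4 regions. At like width the order is set by the rule: 1.11 per 10 kb in multi-GATA4 regions against 0.305 in single-GATA4 regions paired with them on width. Among individual multi-GATA4 regions the density had a median of 1.05 per 10 kb and a range from 0.187 to 23.6.

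**Figure D1:**
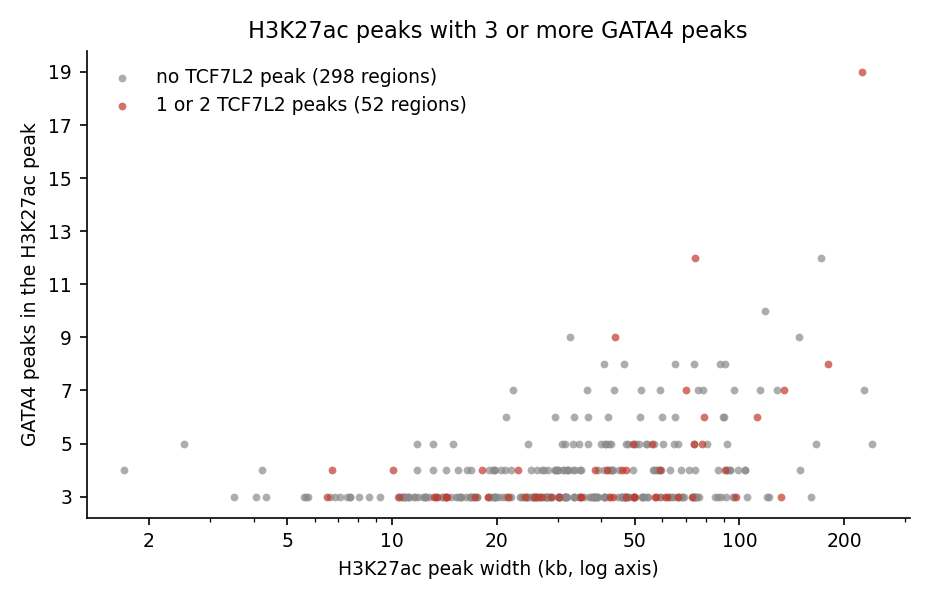
Number of GATA4 peaks (vertical axis) against width of the H3K27ac peak in kb (horizontal log axis) for each of the 350 regions; red points are the 52 regions that held TCF7L2 and grey points the 298 that did not. Regions with 6 or more GATA4 peaks were all 21.3 kb or wider, and the red points lie at all numbers from 3 to 9.

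Broader H3K27ac peaks held several GATA4 peaks more often, but not always. Of 1301 H3K27ac peaks between 20 and 40 kb, 107 held 3 or more GATA4 peaks (8.22%), while 587 held none (45.1%). Between 40 and 80 kb, 115 of 345 were multi-GATA4 regions (33.3%) and 72 held none. Above 80 kb the counts were 41 of 64 (64.1%) with 3 or more and 3 with none. Below 5 kb only 6 of 62069 H3K27ac peaks held 3 or more. The share thus went up through these width classes, and peaks without GATA4 were present in each. The widest single-GATA4 region spanned 123.5 kb on chromosome 15 (58801569 to 58925022, mm9). It was followed by peaks of 112.7 kb on chromosome 9 (107436288 to 107549031) and 95.9 kb on chromosome 7 (119816477 to 119912337). Those of 90.8 kb on chromosome 17 (26676523 to 26767276) and 81.0 kb on chromosome 1 (154393419 to 154474433) came next, and of these 5 the one on chromosome 9 held a TCF7L2 peak.

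The region with the most GATA4 peaks lay on chromosome 1 from 73948132 to 74173104. It held 19 GATA4 peaks over 225.0 kb, and the first and last GATA4 midpoints were 180.6 kb apart. The GATA4 peaks were 125 to 462 bp wide, with the widest at 74055007 to 74055468. The longest stretch without a GATA4 midpoint was 30.7 kb, so the peaks were spread along most of the domain. Its 1 TCF7L2 peak, at 74015805 to 74016001, was 6.02 kb from the nearest GATA4 midpoint.

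A different layout was seen on chromosome 14 from 55553730 to 55628212, where 12 GATA4 peaks lay in 74.5 kb. There 4 GATA4 peaks sat within 55585431 to 55587555, the widest of them 826 bp (55585431 to 55586256). A further 4 lay within 55621279 to 55623720. The other 4 were single peaks elsewhere in the domain. The TCF7L2 peak of this region, at 55585559 to 55585694, was inside the GATA4 peak of 826 bp. A stretch of 23.3 kb between these groups had no GATA4 midpoint.

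Compact groups were found in narrower domains as well. On chromosome 5 from 123572546 to 123605164, 9 GATA4 peaks had their midpoints within 6.47 kb of a region 32.6 kb wide. They began at 123584561 and ended at 123591269, and the widest was 766 bp (123586414 to 123587179). On chromosome 18 from 35177986 to 35221801, 9 GATA4 peaks were spread over 30.7 kb of 43.8 kb. The last 4 of these, between 35210488 and 35212447, were close neighbours, and the TCF7L2 peak at 35211960 to 35212124 overlapped the peak at 35211813 to 35212098. The other region with 9 was on chromosome 5 (122886244 to 123034394), where 51.1 kb of 148.2 kb separated the first from the last and a stretch of 73.6 kb lacked GATA4.

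**Figure D2:**
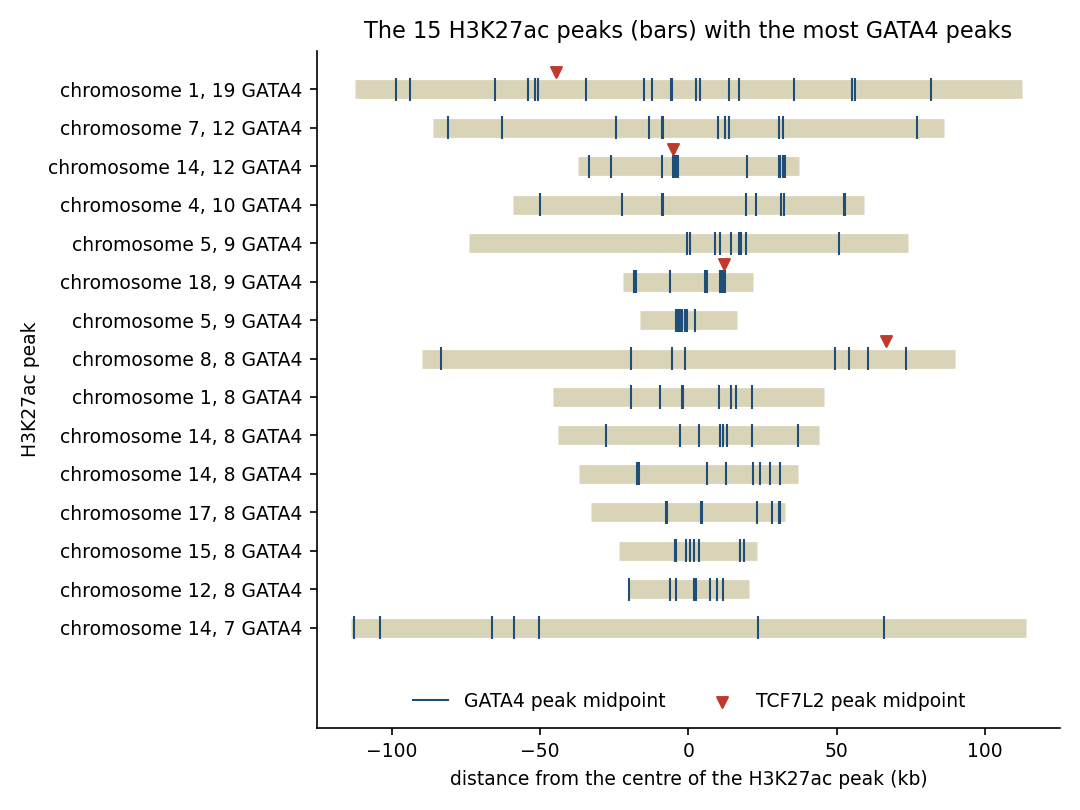
Layout of the 15 regions with the most GATA4 peaks: each bar is an H3K27ac peak drawn around its centre (horizontal axis, kb), blue lines are GATA4 peak midpoints and red triangles TCF7L2 peak midpoints. GATA4 peaks were spread along the 225.0 kb domain on chromosome 1 and confined to 6.47 kb of the narrower domain on chromosome 5, and 4 of the 15 regions held TCF7L2.

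Among the others of these 15 regions, 12 GATA4 peaks lay on chromosome 7 (119343320 to 119515382, 172.1 kb) and 10 on chromosome 4 (132562005 to 132680495, 118.5 kb). Neither held TCF7L2. The regions with 8 were found on chromosome 8 at 11243230 to 11423013 and on chromosomes 1 (167571500 to 167662603), 14 (63809785 to 63897660 and 35337477 to 35411584), 17 (10546553 to 10611961), 15 (76826473 to 76873011) and 12 (88143001 to 88183816). Their widths ran from 40.8 kb on chromosome 12 to 179.8 kb on chromosome 8, and of these 7 the one on chromosome 8 held TCF7L2. The last of the 15 had 7 GATA4 peaks in 227.6 kb on chromosome 14 (26269833 to 26497461), with a stretch of 74.0 kb free of GATA4. On chromosome 11 the widest region of all (88163687 to 88404980, 241.3 kb) had 5 GATA4 peaks, the nearest 2 of them 7104.5 bp apart.

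GATA4 peaks covered 67.3%, 73.6% and 43.2% of the 3 narrowest regions and 18.8% and 18.9% of the next 2. On chromosome 2 from 51801821 to 51803515, an H3K27ac peak of 1.70 kb held 4 GATA4 peaks of 151, 244, 544 and 202 bp, which gave the highest density of the set, 23.6 per 10 kb. On chromosome 12 from 54031001 to 54033519, 5 GATA4 peaks of 278 to 480 bp lay in 2.52 kb (19.8 per 10 kb). Next to it, from 54025995 to 54029500, a region of 3.51 kb held 3 GATA4 peaks of 572, 126 and 817 bp. In this last pair the outermost GATA4 peak ended exactly at the facing border of its H3K27ac peak, at 54029500 and at 54031001. The gap of 1500 bp between them had both ends at a multiple of 500 bp and no peak of either list within it, and whether these are pieces of 1 longer region was not tested. They were the only 2 of the 350 regions that shared a border with a GATA4 peak. The next narrowest were on chromosome 5 (136100105 to 136104171, 4.07 kb, 3 GATA4 peaks) and chromosome 7 (6679798 to 6684031, 4.23 kb, 4 GATA4 peaks). None of the 5 narrowest, which were also the 5 densest, held TCF7L2, too few to set against the 14.9% of all regions.

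The place of the GATA4 peaks inside a region was not used in choosing it. Neighbouring GATA4 midpoints were a median of 4.01 kb apart (95% interval of the median 3.48 to 4.58 kb, 1024 neighbouring pairs), with quartiles of 1.09 and 10.3 kb and extremes of 0.187 and 74.0 kb. This spacing was much the same whatever the number of GATA4 peaks: the medians were 3.97 kb with 3, 3.99 kb with 4, 4.12 kb with 5 and 4.01 kb with 6 or more. Regions with more GATA4 peaks were thus wider at a like spacing.

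Close pairs were common. Midpoints within 1 kb of each other made up 243 of 1024 neighbouring pairs, 23.7% (95% Wilson interval 21.2 to 26.4), and 180 regions (51.4%) held at least 1 such pair. Points placed uniformly and independently over the same widths would give 13.1%, from the formula for uniform spacings, which lets points fall on top of each other as called peaks cannot. The ratio to this value was 1.81 at 1 kb, 1.50 at 2 kb, 1.18 at 5 kb and 1.02 at 20 kb. When GATA4 peaks separated by up to 500 bp were counted as 1, 255 regions remained with 3 or more, and the share within 1 kb was 4.44% against a uniform 9.74%. At 2 kb it was then 19.5% (16.8 to 22.5) against 18.5%, and at 5 kb 43.5% (39.9 to 47.1) against 39.7%. At 10 kb it was 67.0% (63.6 to 70.3) against 62.9%. Joining removes most pairs within 1 kb by construction, so the value there says nothing of an excess. The intervals at 5 and 10 kb lay above the uniform share and the one at 2 kb held it. All intervals over pairs take the pairs of 1 region as independent, so they may be too narrow. At 5 kb the lower end was only 39.95% against 39.72%. The formula also leaves out that midpoints lay more often in the inner part of a region. An excess is therefore not read from the joined values, and those at 2, 5 and 10 kb were added after the data were seen. Of all gaps, 156 (15.2%) were no longer than 300 bp, the mean length of the sonicated DNA fragments per the labels.

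**Figure D3:**
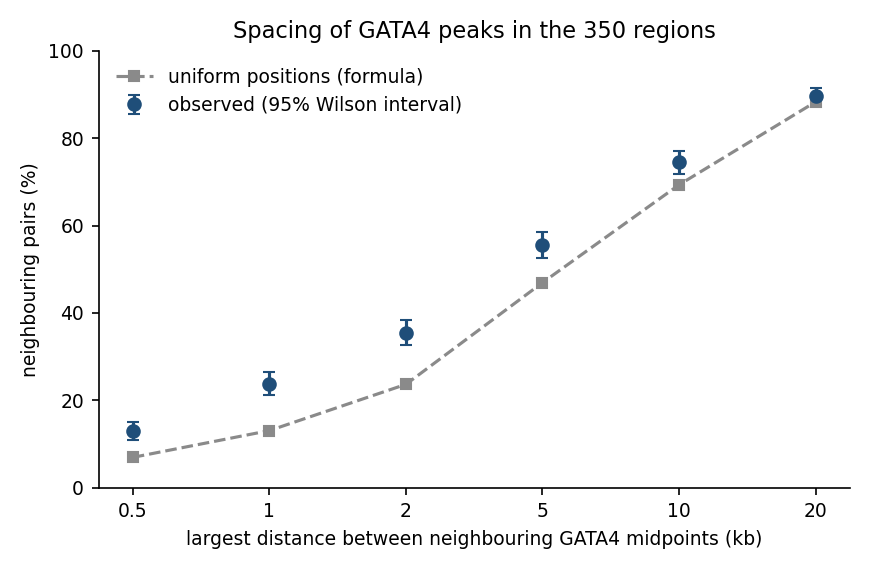
Share of the 1024 neighbouring GATA4 pairs (vertical axis, %) whose midpoints were within the distance on the horizontal axis (kb), with 95% Wilson intervals (blue), beside the share for uniform positions from a formula (grey). The observed share was 23.7% against 13.1% at 1 kb, and the curves come together at 20 kb. The intervals take the pairs of 1 region as independent.

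In the 5 regions with the shortest distance between first and last GATA4 midpoint, 3 peaks stood almost side by side. The shortest was 0.535 kb on chromosome 7 (109052029 to 109058893), where the GATA4 peaks of 287, 166 and 229 bp followed one another at 109054141, 109054486 and 109054705. The distances were 0.600 kb on chromosome 10 (83354800 to 83361874) and 0.724 kb on chromosome 4 (135373999 to 135401838). On chromosome 13 (46505752 to 46529209) and chromosome 10 (6947162 to 6960635) they were 0.913 and 0.933 kb. None of these 5 regions held TCF7L2, and their H3K27ac peaks were up to 27.8 kb wide. With 14.9% of all regions holding TCF7L2, 5 regions are too few to show a lack of it. In 64 regions (18.3%) the whole group of GATA4 midpoints fitted into 5 kb. Of these 64, 8 held TCF7L2, beside 52 of all 350 regions. Over all regions the first and last midpoints were a median of 15.2 kb apart (quartiles 7.23 and 30.8 kb), or 47.5% of the region's width.

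GATA4 peaks were found more often in the inner part of a region than near its borders. Relative distance was taken as 0 for a midpoint at the region's centre and 1 for one at its edge. The 1374 midpoints had a mean relative distance of 0.446 ± 0.268 (SD), where evenly spread positions have 0.5. The outer band from 0.8 to 1 held 12.4% of the midpoints (10.7 to 14.2) and the inner band from 0 to 0.2 held 23.4% (21.3 to 25.7). Single-GATA4 regions of like width gave nearly the same picture, with a mean of 0.434 ± 0.266 (SD, 286 peaks) and 11.9% (8.63 to 16.2) in the outer band.

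For comparisons at like width, each multi-GATA4 region was paired, from the widest down, with the unused single-GATA4 region nearest in width, within 5%. A partner was found for 286 regions, and the medians of the paired widths were 30.2 and 30.1 kb. The 64 without a partner were broad, between 45.9 and 241.3 kb.

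Individual GATA4 peaks had nearly the same width in company and alone, at like region width. Their median width was 204 bp (quartiles 151 and 289 bp, 1064 peaks) in the paired multi-GATA4 regions and 204.5 bp (151 and 278 bp, 286 peaks) in their partners. Over all 350 regions the median was also 204 bp, with a range from 125 to 1493 bp. The widest GATA4 peak of each region had a median of 319 bp and the others 176 bp, an order that follows from taking the widest. The widest of all lay on chromosome 7 at 51727401 to 51728893, between a GATA4 peak of 354 bp at 51723128 and one of 140 bp at 51728999. After it came GATA4 peaks of 884 bp in the region with 8 on chromosome 15, 857 bp on chromosome 18 (region 11045148 to 11105496) and 848 bp on chromosome 18 (region 75636810 to 75704677). The peak of 826 bp on chromosome 14 was the fifth.

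The surroundings of the regions were also like those of their partners. The nearest other H3K27ac peak was a median of 0.811 kb from the paired multi-GATA4 regions and 0.778 kb from their partners. When H3K27ac peaks were joined across gaps of up to 12.5 kb, the paired multi-GATA4 regions lay in stretches of median 109.9 kb (quartiles 67.3 and 205.0 kb) and their partners in stretches of 135.5 kb (70.6 and 214.4 kb). GATA4 peaks elsewhere in the same stretch were present for 193 of 286 multi-GATA4 regions, 67.5% (61.9 to 72.6), and for 182 of 286 partners, 63.6% (57.9 to 69.0). These intervals overlap, and the difference was not tested. GATA4 peaks without acetylation were rare around both, with at least 1 within 10 kb of 3 multi-GATA4 regions and 2 partners.

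The 350 regions lay in 323 stretches, and 24 stretches held 2 or 3 of them. Of 331 gaps between neighbouring multi-GATA4 regions, 31 were 100 kb or shorter, and the median gap was 2167.5 kb. In fixed windows of 100 kb, which can split neighbours, 7 held the midpoints of 2 regions and none held 3. These included chromosome 11 from 86700001 to 86800000 (9 GATA4 peaks in 2 regions), chromosome 16 from 92300001 to 92400000 (8), chromosome 12 from 54000001 to 54100000 (8, in the 2 regions with a border at the gap of 1500 bp), chromosome 11 from 102900001 to 103000000 (7) and chromosome 14 from 70000001 to 70100000 (7). The windows on chromosome 16 and at 102900001 on chromosome 11 held 1 TCF7L2 peak each.

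Each autosome had at least 10 multi-GATA4 regions. Chromosome 11 had 41, or 7.57 per 1000 of its H3K27ac peaks, and chromosomes 19 and 7 followed with 7.27 and 6.85 per 1000. Chromosome 1, although it had 5044 H3K27ac peaks, had 13 of these regions, 2.58 per 1000, the lowest of the autosomes. On the X chromosome 61 H3K27ac peaks held GATA4 and 0 held 3 or more. Dividing 3 counts by these 61 gives an upper limit of 4.92%, which is not a Wilson limit. On the autosomes the share was 350 of 6443, 5.43% (4.91 to 6.01). The limit for X and the autosomal interval were not obtained in the same way. Their order is not read as a difference, which was not tested.

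TCF7L2, which played no part in the choice, was present in 52 of the 350 regions, 14.9% (11.5 to 19.0). Over all H3K27ac peaks the share was 0.821% (616 of 75011). Of the 52 regions, 45 held 1 TCF7L2 peak and 7 held 2, which makes 59 TCF7L2 peaks, 9.15% of the 645 in acetylated chromatin. At the limit of the rule, 30 of 204 regions with exactly 3 GATA4 peaks held TCF7L2, 14.7%, and 54 of 830 H3K27ac peaks with exactly 2 did, 6.51%, at median widths of 28.5 and 14.6 kb.

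Width was allowed for in several ways, since broad peaks have more room for TCF7L2. Among the paired regions, 37 of 286 multi-GATA4 regions held TCF7L2, 12.9% (9.53 to 17.3), against 20 of 286 partners, 6.99% (4.57 to 10.6). In 33 pairs only the multi-GATA4 region held it, in 16 only the partner, and in 4 both. Over all 350 regions and 4779 single-GATA4 regions in 20 width classes, the common odds ratio was 2.07 (95% interval 1.34 to 3.21, Mantel-Haenszel). The interval lies above 1. It covers counting error over regions only, since each antibody had 1 list and regions are not replicates.

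The difference was not of the same size at all widths. Between 10 and 20 kb, 9 of 67 multi-GATA4 regions held TCF7L2, 13.4% (7.23 to 23.6), against 48 of 944 single-GATA4 regions, 5.08% (3.86 to 6.68). Between 20 and 40 kb the shares were closer, 11 of 107 or 10.3% (5.84 to 17.5) against 29 of 396 or 7.32% (5.15 to 10.3). Between 40 and 80 kb they were 23 of 115 or 20.0% (13.7 to 28.2) against 6 of 88 or 6.82% (3.16 to 14.1). Intervals were apart between 10 and 20 kb and overlapped in the other classes, and a difference between width classes was not tested. Below 5 kb the order was the opposite, with 0 of 6 multi-GATA4 regions (an upper limit of 39.0%) against 87 of 2386 single-GATA4 regions, 3.65%. Above 80 kb only 6 single-GATA4 regions were left for comparison.

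**Figure D4:**
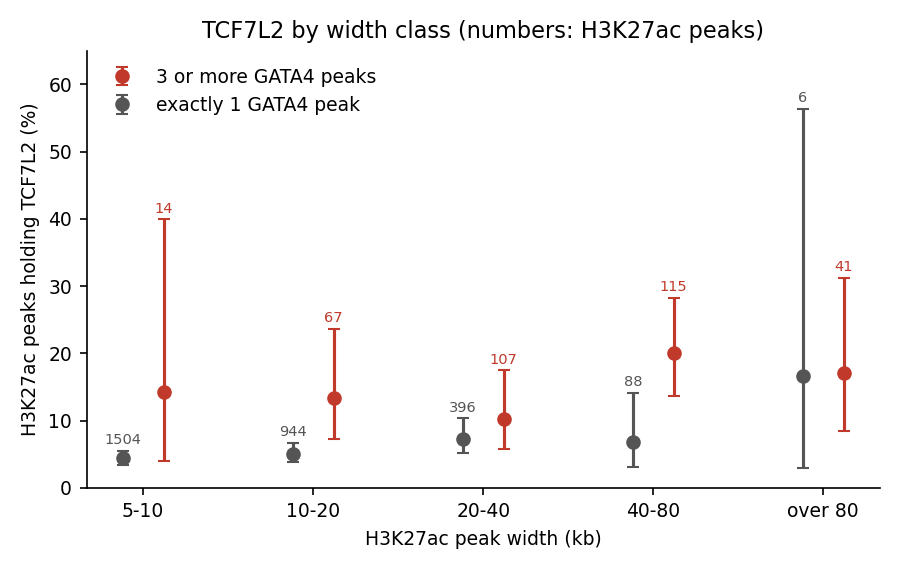
Share of H3K27ac peaks that held TCF7L2 (vertical axis, %, with 95% Wilson intervals) by width class (horizontal axis, kb) for peaks with 3 or more GATA4 peaks (red) and exactly 1 (grey); the small numbers give the H3K27ac peaks in each class. Peaks below 5 kb, where 0 of 6 regions with 3 or more held TCF7L2 against 3.65% with 1, are not drawn. Red points are above grey points in the 5 classes drawn, from 17.1% against 16.7% above 80 kb to 20.0% against 6.82% between 40 and 80 kb.

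TCF7L2 peaks on and clear of GATA4 were then counted separately. Of the 59 TCF7L2 peaks in multi-GATA4 regions, 34 shared at least 1 bp with a GATA4 peak, 57.6% (44.9 to 69.4), and their midpoints were a median of 52.5 bp from the nearest GATA4 midpoint. The share was 38.1% in the paired partners (8 of 21, 20.8 to 59.1), but 72.8% over all single-GATA4 regions (179 of 246, 66.9 to 77.9) and 66.7% where 2 GATA4 peaks were present (38 of 57, 53.7 to 77.5). The order thus depended on the background, and the median width was 5.59 kb for all single-GATA4 regions and 30.1 kb for the paired ones. TCF7L2 peaks clear of GATA4 were present in 24 of the 350 regions, 6.86% (4.65 to 10.0), against 0.503% of all H3K27ac peaks. For these the common odds ratio over width classes was 1.07 (0.562 to 2.05), an interval that holds 1 and reaches 2.05. Among the pairs the numbers were 14 of 286 and 13 of 286. For TCF7L2 peaks on GATA4 the odds ratio was 3.81 (2.17 to 6.69), a comparison added after the data were seen. A region with more GATA4 peaks has more places for such an overlap, and the rule set that number. This value is therefore not independent of the choice of regions, and the odds ratio of 2.07 counts these overlaps too. Whether these odds ratios differ was not tested.

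Counted per GATA4 peak, TCF7L2 was about as frequent in both kinds of region. In the paired regions 32 of 1064 GATA4 peaks overlapped TCF7L2, 3.01% (2.14 to 4.21), and in their partners 8 of 286, 2.80% (1.42 to 5.42). Among all 10530 GATA4 peaks the share was 2.99%, and in the 350 regions it was 39 of 1374, 2.84% (2.08 to 3.86). The paired multi-GATA4 regions had 3.72 GATA4 peaks per region against 1. Against H3K27ac peaks with exactly 2 GATA4 peaks, the odds ratio of holding TCF7L2 over width classes was 2.18 (1.36 to 3.49). Whether the number of GATA4 peaks accounts for the difference in TCF7L2 was not tested.

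Among the multi-GATA4 regions themselves, the share with TCF7L2 showed no clear relation to the number of GATA4 peaks. It was 14.7% with 3 (10.5 to 20.2), 13.9% with 4 (7.72 to 23.7), 11.4% with 5 (4.54 to 26.0) and 20.5% with 6 or more (10.8 to 35.5). Allowing for width, the odds ratio per additional GATA4 peak was 1.09 (0.930 to 1.29, logistic regression), an interval that holds 1. Regions with TCF7L2 had a median width of 44.9 kb and 4.31 ± 2.75 GATA4 peaks (SD, 52 regions), those without 33.6 kb and 3.86 ± 1.40 (SD, 298 regions). Their widest GATA4 peaks were alike, with medians of 321 and 319 bp.

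For the 34 TCF7L2 peaks on GATA4, the nearest GATA4 peak had a median width of 267 bp. GATA4 peaks without TCF7L2 in the same set of regions had a median of 202 bp, though a wide peak is also overlapped more easily. In 15 of 34 cases this nearest GATA4 peak was the widest of its region, where the 350 regions held 1374 GATA4 peaks in all. Whether 15 is more than that share was not tested. On chromosome 11 from 98443551 to 98453604, a TCF7L2 peak of 1155 bp (98448537 to 98449691) sat in a region of only 10.1 kb with 4 GATA4 peaks, and its midpoint was 4.5 bp from that of the nearest GATA4 peak. On chromosome 9 from 106789587 to 106796292, 4 GATA4 peaks and a TCF7L2 peak of 443 bp (106794336 to 106794778) shared 6.71 kb. These 2 regions and that at 109054141 on chromosome 7, chosen after their values were seen, were narrow regions of up to 10.1 kb with and without TCF7L2.

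The 7 regions with 2 TCF7L2 peaks differed in how these lay to GATA4. On chromosome 4 from 45414621 to 45548750, with 7 GATA4 peaks in 134.1 kb, the TCF7L2 peaks at 45526903 and 45543929 were 30.0 and 47.0 kb from the nearest GATA4 midpoint, the farthest in the set. All 7 GATA4 peaks lay on the other side, between 45421731 and 45497118. In each of the other 6 regions 1 TCF7L2 peak was on GATA4 and 1 was not. On chromosome 7 from 29132690 to 29181934, with 5 GATA4 peaks, the TCF7L2 peaks at 29157399 to 29157535 and 29157619 to 29157754 were close together beside and on the GATA4 peak at 29157697 to 29158136. Of the remaining 5, the first had 4 GATA4 peaks and lay on chromosome 11 (120075853 to 120134877). The others had 3 GATA4 peaks each. Of these, 2 were on chromosome 5, at 125571320 to 125668954 and at 122538399 to 122564106, and 1 each on chromosome 8 (129017936 to 129084474) and chromosome 3 (95447048 to 95508783).

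The 25 TCF7L2 peaks clear of GATA4 were a median of 5.19 kb from the nearest GATA4 midpoint of their region, between 0.224 and 47.0 kb, and 5 were within 1 kb. The nearest was on chromosome 2 at 152221859 to 152222005, in a region of 10.4 kb. TCF7L2 peaks on GATA4 had a median width of 221 bp and those clear of it 188 bp. Measured from the centre of the region, TCF7L2 midpoints had a mean of 0.437 ± 0.285 (SD, 59 peaks) in relative distance, close to the GATA4 mean.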

How the data were processed

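ChIP-seq peak lists of TCF7L2, GATA4 and H3K27ac were used, 1 list per antibody. The authors deposited only chromosome, start and end of each peak (positions in bp, mm9), without score or read count, so depth is unknown. The submitters' processing notes name MACS2 (2.1.1.20160309.0), Bowtie2 (2.2.6.2), deepTools and FastQC (0.10.0). The way replicates were combined and the peak threshold are not stated in these sources, and peak calling may split 1 binding site into several GATA4 peaks.

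Positions are printed 1-based. No genome or annotation of mm9 was used here, so genes and sequences are not given. Overlap meant 1 bp or more. Intervals of shares are 95% Wilson intervals, except the limit for the X chromosome. They cover counting error only and take the pairs or peaks of 1 region as independent. Mantel-Haenszel odds ratios used 20 width classes at quantiles of the multi-GATA4 regions' widths, and an interval without 1 was read as a difference. No p-values were computed. Regions named are those with the most GATA4 or TCF7L2 peaks, the widest, narrowest, densest and most compact, those with the widest GATA4 peaks, windows with most regions, and the widest single-GATA4 regions. Regions and measures were chosen with earlier results of these data known. The Mantel-Haenszel odds ratio and the uniform share within 1 kb were tested on simulated data, and the other estimators were not. Software was statsmodels 0.14.6, scipy 1.17.1 and pandas 2.3.3, with numpy 2.4.6 in Python 3.11.15.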

Additional observations from a re-analysis of the deposited data

How the results depend on the processing

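Of 80 alternatives, 79 planned and 1 added, 63 kept their call, stayed within the 95% interval of the value given or, for the number of regions, within 1.5 times of 350 (255 with GATA4 joined, 414 with H3K27ac joined). The odds ratio of holding TCF7L2 stayed above 1, with its interval, under all 15 alternatives run for it. It went from 1.46 (2 or more GATA4 peaks) to 3.81 (only TCF7L2 on GATA4). That highest value depends on the GATA4 number, which the rule set. The other alternatives also count TCF7L2 peaks on GATA4, so none of the 15 is independent of that number. The odds ratio for TCF7L2 clear of GATA4 was 0.952 with 2 or more and 0.919 with 4 or more GATA4 peaks, both intervals holding 1. Without width classes it was 6.05 (3.74 to 9.80). In its other alternatives it ran from 1.038 (logistic regression on width) to 1.805 (0.866 to 3.76, against exactly 2 GATA4 peaks), all intervals holding 1. With 2 or more GATA4 peaks there were 1180 regions, 8.98% held TCF7L2, the odds ratio per additional GATA4 peak was 1.198 (1.05 to 1.37), the median spacing 3400 bp and the share of pairs within 1 kb 28.2%. With 4 or more there were 146 regions and 20.8% of pairs within 1 kb. With GATA4 peaks of the median width or wider there were 118 regions, a spacing of 4671 bp, 17.9% of pairs within 1 kb and a mean position of 0.426. The uniform share within 1 kb moved as well. From 13.1% it went to 16.0% with 2 or more GATA4 peaks, 12.9% with 4 or more and 10.7% with the wider GATA4 peaks. Joining GATA4 peaks across 500 bp gave a spacing of 6267 bp and 4.44% within 1 kb, as joining removes short gaps by construction. Joining H3K27ac peaks across 1 kb gave a spacing of 4802 bp. The causes of the other changes were not tested. The absence of peak scores and counts limits all values to positions.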
